A study of Mus musculus with 2 samples.

Results

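The broad regions described here are very wide ATAC-seq peaks that both replicates of an experiment on LβT2 cells had in common. Chosen by their width alone, they are peaks on chromosomes 1 to 19 that spanned at least 2000 bp and overlapped a peak of at least 2000 bp in the other replicate. Of the 52934 peaks of replicate 1 and the 59073 peaks of replicate 2 on these chromosomes, 883 and 999 were this wide. A broad partner was found for 735 (83.2%) and 726 (72.7%) of them. The other 148 and 273 overlapped a narrower peak. Joining peaks that overlapped gave 644 broad regions, or 2.22% of the 29028 regions in which peaks of both replicates overlapped. Their peaks were 1.39% of all peaks in replicate 1 and 1.23% in replicate 2 but held 13.3% and 11.2% of the bases inside peaks. Since width chose the regions, their width, height and number are given as a description with no test.

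LβT2 cells are an immortalized line of mouse gonadotropes, the pituitary cells that make luteinizing and follicle-stimulating hormone. All samples belonged to 1 group, cells at passage 21 that received 4 pulses of 2 nM GnRH (gonadotropin-releasing hormone), 1 every 2 h over 6 h 45 min, and were harvested 45 min after the last pulse. The group had 2 replicates, and untreated cells were not analysed here, so no value below is a response to the hormone. Nothing in the labels says whether the replicates came from separate cultures, and tests between them measure only the spread between these 2 libraries. Each peak list gives no read total. Depth was therefore worked out from the deposited fold and p-value as the tags, extended to 200 bp, that each summit held, against a background of 3.05 expected tags in replicate 1 and 3.54 in replicate 2. That background is the one used in peak calling, and it depends on the genome size set there. The weakest peak held 10 and 11 summit tags and the median peak 14 and 16.

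In ATAC-seq the Tn5 transposase cuts and tags DNA that nucleosomes leave free, so an active promoter or enhancer usually gives a narrow peak. A long unbroken peak can mark a cluster of regulatory elements, but sequence that is present in many copies, such as a satellite, a minisatellite, a duplicated gene family or a nuclear copy of mitochondrial DNA, also collects reads over its whole length. A read that fits several copies equally well is given to 1 of them by the aligner, and the peak lists do not tell at which copy such a read arose. Accessibility per copy was therefore not tested. From peak lists, the number of copies in these cells and the accessibility of each copy cannot be told apart.

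Most broad regions were not promoters of unique genes but repeated sequence. In 611 of the 644 (94.9%) at least 50% of the 50-bp windows over the shared bases occurred at more than 1 place in the genome, compared with 62.4% of all overlapping regions. A summit within 1 kb of a protein-coding transcription start site (TSS, GENCODE vM21 on GRCm38) was found in 75 (11.6%), compared with 21.3% of all overlapping regions. These 2 splits gave 4 classes. The largest, 541 regions (84.0%), was repeated and away from promoters, and 70 (10.9%) were repeated and at a promoter. Single-copy sequence away from promoters made up 28 (4.35%). Only 5 (0.776%) were single-copy promoters, although such promoters were 19.6% of all overlapping regions. Seen from the other side, 0.0879% of all 5689 single-copy promoter regions were broad, against 14.5% of the 482 repeated promoter regions.

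The repeated regions differed in where their copies lay, and 5 kinds are used below. Their limits were set after the values had been seen. In 454 regions (70.5%) the copies were mostly elsewhere on the same chromosome. In 54 (8.39%) at least 50% of the windows had all their copies within 100 kb, which is called a local array here. In 74 (11.5%) the copies lay on several chromosomes, 29 (4.50%) had windows with a median of at least 100 copies, and 33 (5.12%) were single-copy. Single-copy means only that fewer than 50% of the 50-bp windows occurred elsewhere, not that the sequence is unique. The 33 include 6 with a tandem unit, among them the region in Asic4. They also include the mitochondrial copies on chromosomes 2 and 4. These regions are described below. Of all overlapping regions of each kind, 11.98% were broad among those with copies on the same chromosome and 4.68% among local arrays. Only 0.321% of the 9031 overlapping regions with many copies were broad, close to the 0.302% of the single-copy ones.

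**Figure D1:**
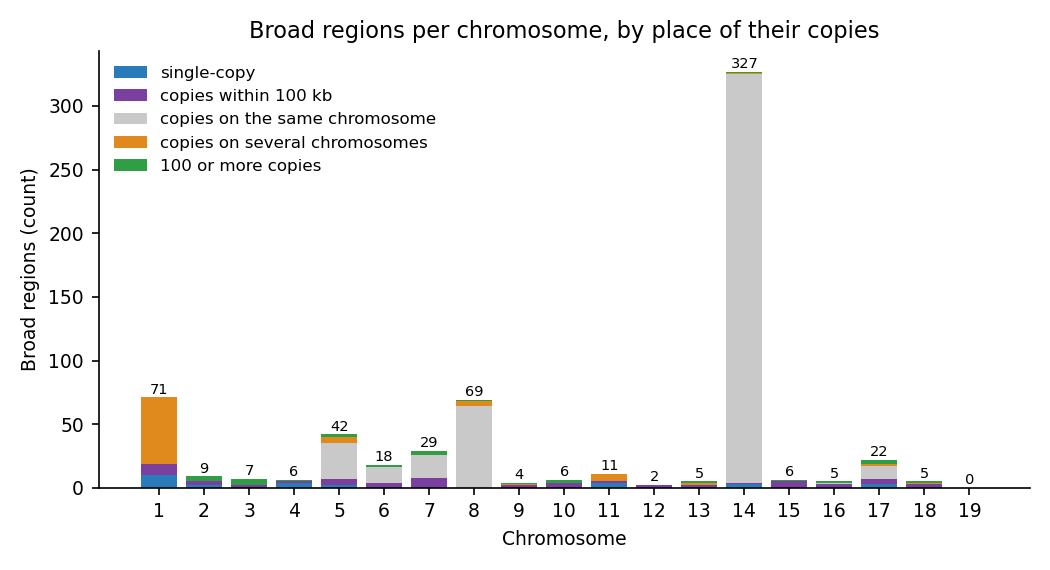
Number of broad regions on each of chromosomes 1 to 19 (x axis), as stacked bars coloured by where the copies of their sequence lie. Chromosome 14 holds 327 of 644, nearly all with copies on the same chromosome, followed by chromosome 1 with 71 and chromosome 8 with 69, while chromosome 19 holds 0.

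Each of the 29 regions of many copies held a close match to 1 of a pair of tandem units, which are shown here for that reason. One unit of each is printed from the plus strand of GRCm38, in lower case with each CpG in capitals. The first has 208 bp with 12 CpG and the second 212 bp with 13 CpG.
Unit of 208 bp, chr3:140771455-140771662: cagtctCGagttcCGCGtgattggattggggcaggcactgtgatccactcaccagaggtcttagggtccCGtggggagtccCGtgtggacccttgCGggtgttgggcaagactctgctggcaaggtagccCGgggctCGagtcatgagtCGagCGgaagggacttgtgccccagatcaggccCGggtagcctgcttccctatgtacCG
Unit of 212 bp, chr9:80956074-80956285: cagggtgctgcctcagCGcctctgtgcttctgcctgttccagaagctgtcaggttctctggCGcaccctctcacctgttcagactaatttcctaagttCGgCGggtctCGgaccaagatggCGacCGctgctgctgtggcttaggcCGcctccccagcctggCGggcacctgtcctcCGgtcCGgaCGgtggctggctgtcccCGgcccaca
The best alignment of these units in any turn and strand needed 104 edits, an identity of 50.9%. Of the 29 regions, 20 held a copy at least 95.7% identical to the 208-bp unit and 9 a copy at least 97.2% identical to the 212-bp unit, and none reached more than 56.6% with the other unit. Within each region the unit repeated with a median identity of 96.98%. Their windows occurred at 592 to 2096 places (median 1339), and the regions lay on 15 chromosomes. None was at a promoter, and 25 had the nearest protein-coding TSS over 10 kb from the summit of replicate 2. They were the most uniform kind. Widths averaged 2095.5 to 10432.5 bp, summit tags were 21 to 51 in replicate 1 and 22 to 58 in replicate 2, and GC content was 61.3 to 66.2%. The ratio of observed to expected CpG (CpG o/e) had a median of 0.597, which lies well above that of every other kind.

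Local arrays were mostly minisatellites with short units. In 50 of the 54 the sequence matched itself at 50% or more of its bases after a shift by 1 unit, with a median identity of 87.4% over these arrays. The median unit was 39 bp long (16 to 489 bp). Printed here are units of 3 arrays with the highest identity between neighbouring copies, to show how they differ.
Array upstream of Mgmt, unit of 37 bp, chr7:136867992-136868028, plus strand: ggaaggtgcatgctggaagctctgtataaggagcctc
Array in A2m, unit of 42 bp, chr6:121650572-121650613, plus strand: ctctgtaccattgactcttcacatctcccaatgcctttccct
Array in Herc2, unit of 38 bp, chr7:56160372-56160409, plus strand: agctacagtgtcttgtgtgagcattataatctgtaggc
The array upstream of Mgmt (a DNA repair gene) held 67 exact copies of its unit within 2899 bp and was 2901 bp wide in replicate 1 and 3004 bp in replicate 2, with 59 and 58 summit tags. The array in A2m (alpha-2-macroglobulin) held 71 exact copies, spanned 3701 and 3499 bp and had 27 tags in each replicate. In Herc2, which encodes a ubiquitin ligase, 50 exact copies lay in a region of 2816 and 2788 bp with 26 and 48 tags. These 3 printed units hold no CpG, and local arrays were poor in CpG as a kind. Their median CpG o/e was 0.0356, 29 of 54 were below 0.1, and 12 had no CpG at all in their shared bases.

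Other arrays of this kind lay inside Kcnh1 (unit of 48 bp), Rai14 (42 bp) and Btbd11 (74 bp), with neighbouring copies 98.96%, 98.6% and 99.1% identical. The summits of 40 of the 54 arrays fell in introns in both replicates, 4 in exons and 10 between genes. Short units of up to 100 bp were found in 9.64% of the 643 broad regions with at least 250 shared bases and in 6.38% of the 17336 such overlapping regions of any width. Of 59 broad regions whose best unit was at most 100 bp long, 3 shared one with each other, a 5-base unit. It was found in a region near Zfp825 on chromosome 13, in one on chromosome 17 and in Asic4, which encodes an ion channel subunit.
Unit on chromosome 13, chr13:74528434-74528438, plus strand: cacag
Unit on chromosome 17, chr17:13550494-13550498, plus strand: gctgt
Read on the other strand and from another base, the 2 printed units are the same. The chromosome 13 region chr13:74528431-74531050 was 2620 bp wide in both replicates and had 2046 summit tags in replicate 1 and 2246 in replicate 2. The chromosome 17 region chr17:13549970-13553218 had 2700 and 2901 tags, and the one in Asic4, chr1:75460650-75462720, had only 79 and 75. The same unit thus went with very different tag numbers at these 3 places.

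**Figure D2:**
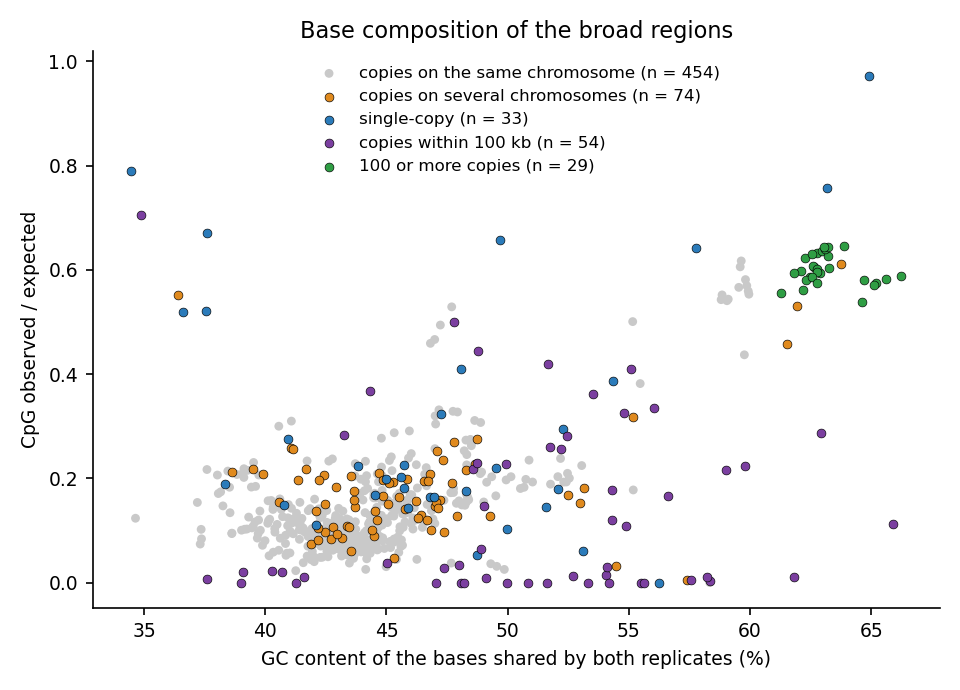
GC content (x axis, %) against the ratio of observed to expected CpG (y axis) over the bases shared by both replicates, 1 point per broad region, coloured by where its copies lie. The 29 regions of many copies form 1 tight group between 61.3 and 66.2% GC, and local arrays spread along the bottom with a median CpG ratio of 0.0356.

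The highest tag numbers of any broad region belonged to a nuclear copy of mitochondrial DNA. This region, chr1:24611523-24616201, was 4677 and 4679 bp wide and had 12883 summit tags in replicate 1 and 17176 in replicate 2. It overlapped 7 annotated unprocessed pseudogenes, and a stretch of 4654 bp was 99.9% identical to bases 6390 to 11042 of the mitochondrial genome. The mitochondrial genome itself was 1 peak of 16299 bp with 14209 and 18863 tags. A second copy at chr2:22587280-22590534, in an intron of Myo3a, had 7050 and 8904 tags and was 97.4% identical to bases 4441 to 7699. The last of them, chr4:80002409-80005206, had 2718 and 3135 tags and was 93.2% identical to bases 12583 to 15356. In these 3 copies, tags and identity to the mitochondrial genome fell in the same order. The 100 bp around the summit of the most diverged copy are printed with the mitochondrial bases they match, and capitals mark the 2 bases that differ.
Nuclear copy, chr4:80002898-80002997, plus strand: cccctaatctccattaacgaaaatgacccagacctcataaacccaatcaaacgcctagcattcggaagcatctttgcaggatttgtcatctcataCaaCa
Mitochondrial genome, bases 13056 to 13155: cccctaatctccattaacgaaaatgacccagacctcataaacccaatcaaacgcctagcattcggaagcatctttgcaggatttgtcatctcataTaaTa
The summits of the copies on chromosomes 1 and 2 matched the mitochondrial genome at all 100 bp. Reads from mitochondria can fit such stretches, and how many of the tags came from there was not tested.

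The widest broad region was an array of satellite sequence at the start of chromosome 9, chr9:2999994-3038407. It was 38414 bp wide in replicate 1 and 38413 bp in replicate 2, with 5045 and 6125 summit tags, and it holds predicted genes such as Gm10722, whose TSS lies within 1 kb of both summits. The repeat unit was 234 bp, which is also the unit length of the mouse major satellite, the repeat of pericentromeric heterochromatin. At its best shift the array matched itself at 71.35% of its bases. One unit, with 6 exact copies in the array, is printed from the plus strand with CpG in capitals.
Unit of 234 bp, chr9:3001739-3001972: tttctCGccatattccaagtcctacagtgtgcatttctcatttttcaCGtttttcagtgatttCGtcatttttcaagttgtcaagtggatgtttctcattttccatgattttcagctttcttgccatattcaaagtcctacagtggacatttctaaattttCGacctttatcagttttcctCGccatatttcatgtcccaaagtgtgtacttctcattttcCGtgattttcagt
The region chr14:19415687-19419710 at Gm21738, 4024 bp wide in both replicates, was 85.6% identical to this array over 4151 bp and had even more tags, 7894 and 9395. By the 50-bp windows it counted as single-copy. The region chr11:3100006-3103012 was 73.6% identical to the array and had only 47 and 52 tags. GC content was 34.9% in the chromosome 9 region and 34.5% in the chromosome 14 region, the lowest value of all broad regions.

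Ribosomal DNA formed a further region of many tags. The region chr17:39842992-39848833 covered the annotated rRNA gene CT010467.1, was 5842 bp wide in both replicates and had 471 and 803 summit tags. With 64.9% GC and a CpG o/e of 0.972 it had the highest CpG ratio of all 644 regions. The reference holds this sequence mostly once on its chromosomes, so it counted as single-copy, although ribosomal genes are known to lie in long arrays.

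Clusters of duplicated genes held most of the other broad regions. Regions separated by gaps of at most 1 Mb formed 106 blocks. Of these, 80 held 1 region, and the 5 largest held 462 regions (71.7%). The largest by far lies on chromosome 14, chr14:3021179-7658622, with 268 regions, and another at chr14:41369443-43547035 has 45. Both hold families of predicted genes named Gm. Next after the largest came a block of 65 regions on chromosome 8 and one of 51 on chromosome 1.

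The chromosome 8 block, chr8:19680658-20835638, was the most sharply bounded of these 5. Peaks covered 56.0% of its bases in replicate 1 and 56.9% in replicate 2, but less than 1% of the 100 kb on either side (0.494% and 0.701% before, 0.702% and 0.371% after). Its regions had a median width of 5672.5 bp, up to 20031.5 bp on average of both replicates, and median summit tags of 42 and 48. Promoters in it, counted from the summit of either replicate, belonged to 4930467E23Rik, Gm15319 and Gm21119. At 4930467E23Rik only the summit of replicate 1 lay within 1 kb of the start, and at Gm15319 only that of replicate 2. The region at Gm15319 was 14648 and 14842 bp wide with 50 and 55 tags, that at 4930467E23Rik 12697 and 14430 bp with 43 and 45, and that at Gm21119 11649 and 11629 bp with 42 and 45. The widest regions there, chr8:20587244-20610170 (20751 and 19312 bp) and chr8:20369847-20390913 (16528 and 21067 bp), had no protein-coding promoter.

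The chromosome 1 block, chr1:84962369-85648645, held Sp110 and Sp140, which encode proteins of nuclear bodies, and their duplicates. Its 51 regions had 22 to 46 summit tags in replicate 1 and 25 to 60 in replicate 2. The copies of all 51 lay on more than 1 reference sequence, which may include scaffolds. On chromosome 5, the block chr5:14907506-15714820 held 33 regions at Speer4c, Speer4d and Speer4e, glutamate-rich genes known from the testis, and at related Gm genes. Tags were higher here than in the other large blocks, with medians of 47 and 60. The highest were at the promoters of Gm9758 (138 and 237), Gm10354 (146 and 221) and Gm17019 (130 and 211), followed by Gm21083 (122 and 180), Speer4c (99 and 178), Gm21190 (98 and 172) and Speer4e (98 and 163). All 7 had more tags in replicate 2, counted without scaling, and the background was also higher in that replicate. Gm10354 was also the second widest of the repeated promoter regions, with 15711 and 15741 bp.

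Smaller blocks had their own character. On chromosome 6, 13 regions within chr6:47648356-47766251 lay in a stretch without any protein-coding gene and had a median GC content of 59.5%. The 9 regions of chr7:59717109-59898140 followed Snhg14, a non-coding RNA of the imprinted Prader-Willi region, and 52 snoRNA genes, with peaks over 69.8% and 70.4% of the bases. They included chr7:59765008-59802705 (17591 and 25031 bp, 121 and 129 tags) and chr7:59727088-59752192 (15064 and 24946 bp, 69 and 86 tags). Obox1 and Obox2, homeobox genes of the oocyte, lay in a block of 11 regions at chr7:15172434-15457806 with 17 to 33 and 20 to 35 tags. The block chr17:13318789-13591608 had 12 regions, among them the 5-base repeat described above. At chr10:58220887-58235315, a pair of regions covered the start of Duxf3 (6268 and 5247 bp, 61 and 62 tags), a double homeobox gene of the early embryo, and AW822073 (7252 and 5738 bp, 65 and 70 tags).

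**Figure D3:**
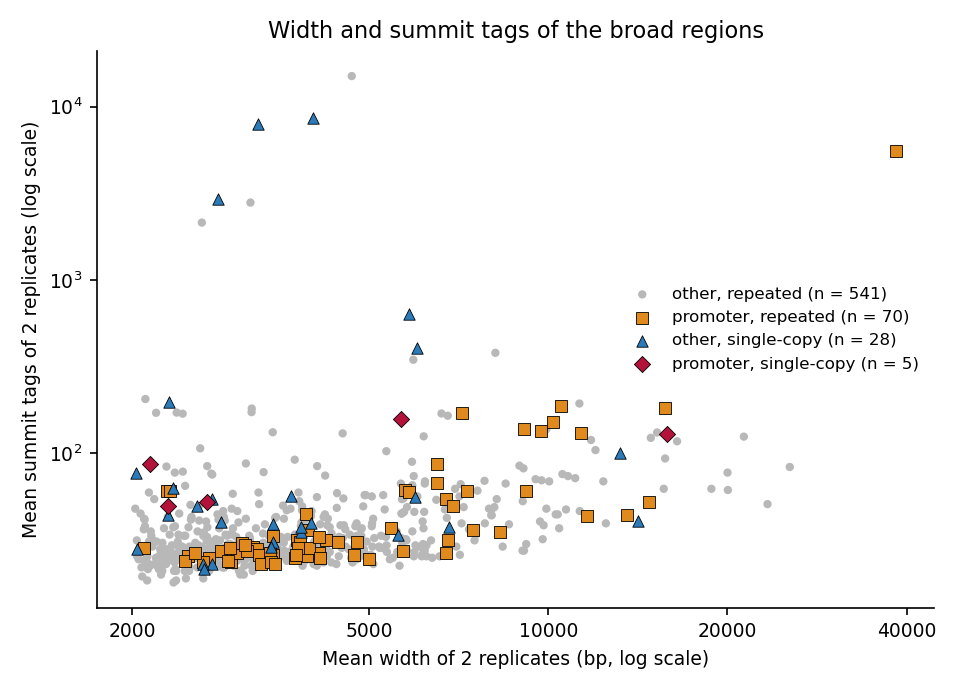
Mean width (x axis, bp, log scale) against mean summit tags (y axis, log scale) of the 2 replicates for each broad region, with colour and symbol for the 4 classes of promoter and copy number. The chromosome 9 satellite stands alone at the far right with a mean of 5585 tags, and most regions lie below 100 tags at widths under 10 kb.

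Several further regions were very wide or very high. The widest regions after the satellite were chr8:55345727-55384561 (15987 and 34916 bp, 82 and 85 tags), far from any protein-coding TSS, and chr7:64465662-64496235 (30574 and 16130 bp, 52 and 50 tags), an array with a unit of 46 bp. Both widths differed strongly between the replicates. The region chr17:13585561-13591608 in an intron of the long non-coding RNA 2700054A10Rik had 401 and 408 tags and a unit of 23 bp. The array chr10:3111242-3117187 (314 and 380 tags) had a unit of 19 bp, and the region chr13:119595561-119603818 in Tmem267 had 274 and 487 tags. The region chr16:3114915-3117027 had 220 and 192.

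A run of single-copy sequence on chromosome 1 stood out among the broad regions, most of which were repeated. The 9 broad regions of chr1:88211305-88307554, a span of 96.25 kb, were all single-copy, and they are 9 of the 33 single-copy regions in the whole set. Peaks covered 90.3% of the run in replicate 1 and 88.9% in replicate 2. In the 100 kb before it the cover was 0.00% and 0.301%, and in the 100 kb after it 3.002% and 2.75%, while all peaks together covered 0.969% and 1.18% of chromosomes 1 to 19. The 50 bp at every summit in the run, 22 peaks in replicate 1 and 23 in replicate 2, occurred only once in the genome. Median summit tags were 30.5 and 35, and the highest were 109 and 207.

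The run crosses 12 protein-coding genes. It begins within the Ugt1a cluster, whose members conjugate bilirubin and drugs with glucuronic acid, passes through Mroh2a and Hjurp, and ends in Trpm8. Hjurp encodes the chaperone that loads the centromeric histone CENP-A, and Trpm8 a cold-sensing ion channel. The widest regions were chr1:88216642-88242166 (11832 and 16459 bp, 39 and 43 tags) over Ugt1a1 and Mroh2a, chr1:88256968-88270257 (13203 and 13231 bp, 76 and 126 tags) over Hjurp and the end of Mroh2a, and chr1:88248758-88256798 (8041 and 5586 bp, 38 and 37 tags) in Mroh2a. In Trpm8, chr1:88282786-88292545 was 6271 and 5689 bp wide with 48 and 64 tags. Only 1 of the 9 regions held a protein-coding TSS near a summit, the one between Hjurp and Trpm8. How many copies of this stretch the cells carried was not tested.

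**Figure D4:**
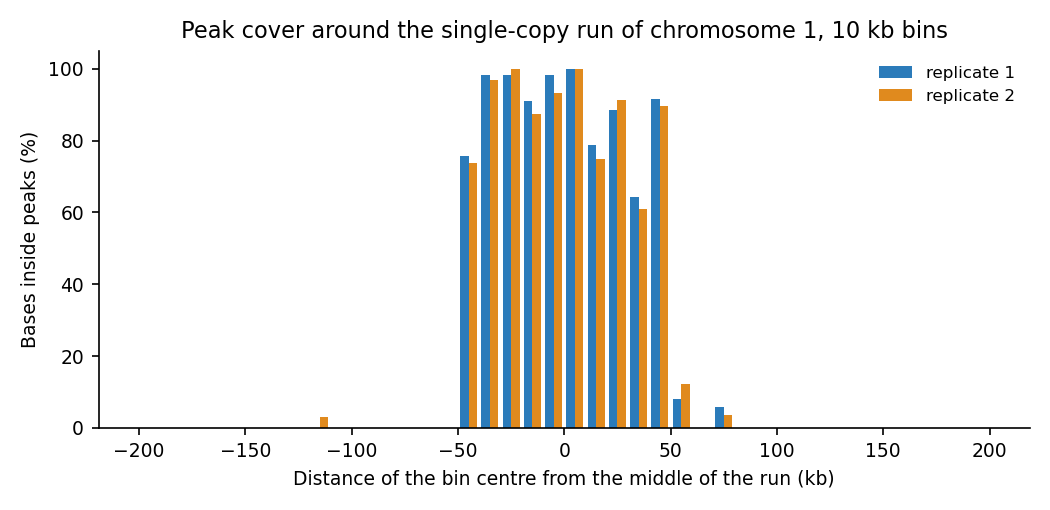
Share of bases inside peaks (y axis, %) in bins of 10 kb against the distance from the middle of the single-copy run of chromosome 1 (x axis, kb), with a bar for each replicate. Cover lies between 61.0 and 100% in the 10 bins from -45 to 45 kb in both replicates and falls to at most 12.2% in the next bin on either side.

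The 5 single-copy promoters are the class closest to what a wide active promoter would be, although their base composition over the whole region varied. They belong to Sfi1, Hjurp with Trpm8, Gm14226, Atp8a1 and Top2b. Top2b encodes DNA topoisomerase II beta and Atp8a1 a phospholipid flippase. Their GC contents were 63.2% and 57.8% and their CpG o/e 0.756 and 0.642, near the medians of all 5689 overlapping single-copy promoter regions (61.8% and 0.784). GC content was lower in the Sfi1 region (43.8%, CpG o/e 0.223) and the Gm14226 region (49.7%, CpG o/e 0.658). These are averages over all shared bases, 2067 to 15793 bp in the 5 regions against a median of 361 bp over the 5689. Over 200 bp at the summits, GC content was 57.25 to 62.25% in the 5 regions, against a median of 62.75% over the 5689. CpG o/e there was 0.430 to 0.814, against a median of 0.803. The 200 bases before the starts of Top2b and Atp8a1 are printed on the strand of the gene. Capitals mark matches to the SP1 motif GGGCGG or to CCAAT on either strand.
Top2b, chr14:16364979-16365178, plus strand: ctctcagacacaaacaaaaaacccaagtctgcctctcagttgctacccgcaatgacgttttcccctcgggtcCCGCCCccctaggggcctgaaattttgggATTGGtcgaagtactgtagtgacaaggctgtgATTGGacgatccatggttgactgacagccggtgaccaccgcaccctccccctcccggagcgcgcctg
Atp8a1, chr5:67847435-67847634, minus strand: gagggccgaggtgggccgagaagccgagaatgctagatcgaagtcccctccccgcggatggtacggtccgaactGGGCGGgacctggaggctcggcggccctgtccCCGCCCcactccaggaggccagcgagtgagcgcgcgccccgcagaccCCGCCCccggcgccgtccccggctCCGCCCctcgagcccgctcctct
The Top2b window held 1 match to the SP1 motif and 2 to CCAAT, and the Atp8a1 window held 4 to the SP1 motif and 0 to CCAAT. Neither held the full cyclic AMP response element TGACGTCA. Over 200-bp windows of the 5689 single-copy promoters, 61.0% held the SP1 motif, 39.5% CCAAT and 3.34% TGACGTCA, and none of these 3 motifs overlaps another in the printed windows. A match is only a description of the letters.

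The Top2b region chr14:16364138-16366359 was 2067 and 2222 bp wide, with 61 and 113 summit tags, and both summits lay within 117 bases before the annotated start. The Atp8a1 region chr5:67845863-67848344 was 2113 and 2482 bp wide with 41 and 59 tags. Gm14226, a predicted gene on chromosome 2, had a region, chr2:155017741-155020518, of 2778 and 2574 bp with 40 and 65 tags, whose summits lay 956 and 949 bp after the start. The Sfi1 region chr11:3184210-3200036 was the widest single-copy region by the mean of both replicates, with 15793 and 15827 bp and 102 and 157 tags. Sfi1 encodes a centrin-binding protein of the centrosome. Its neighbours chr11:3124969-3138020 (102 and 174 tags) and chr11:3166411-3169857 (116 and 149 tags) were repeated, and the block of 10 regions around Sfi1, chr11:3100006-3200036, was covered by peaks over 79.1% and 78.5%.

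Hjurp and Trpm8 start head to head, with TSSs 88277633 on the minus and 88277661 on the plus strand, and share 1 broad region. The 27 bases between both starts are printed in the direction of Trpm8, since the summits of both replicates flank them.
Bases between Hjurp and Trpm8, chr1:88277634-88277660, plus strand: ggggagggacgagagggagggtccgcc
The region chr1:88272788-88278817 was 6030 and 5289 bp wide, with 109 and 207 summit tags, the highest of the single-copy promoters in both replicates. GC content of the whole region was 48.1% and CpG o/e 0.410, both below the whole-region medians of single-copy promoters given above. Those medians come from much shorter regions.

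A single-copy region in an intron of Peg3 carried many copies of a short motif. Peg3 and its neighbour Usp29 are imprinted genes, expressed from the paternal allele, and start next to each other. The region chr7:6727286-6730621 was 2312 and 3336 bp wide with 31 and 49 tags, and none of its 50-bp windows occurred elsewhere. The motif GCCATNTT, known for the factor YY1, had 11 matches on either strand in the 2312 shared bases. Windows of the same length around all 29028 overlapping regions held a median of 1 match, 50.3% held any, the highest had 22, and only 7 (0.0241%) held as many as 11. Printed are 200 bases with 3 of the matches in capitals, all on the minus strand.
Peg3 intron, chr7:6727772-6727971, plus strand: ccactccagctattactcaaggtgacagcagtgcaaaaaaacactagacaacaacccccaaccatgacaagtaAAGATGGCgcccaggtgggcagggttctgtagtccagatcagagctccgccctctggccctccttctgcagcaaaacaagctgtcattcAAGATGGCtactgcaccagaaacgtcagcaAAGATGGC
The motif was searched after the region had been seen, and a match says nothing about binding.

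Of the 75 broad promoter regions, 70 were repeated sequence, and as a group they were poor in CpG. Their median GC content was 44.0% and their median CpG o/e 0.0956 (n = 75), against 61.3% and 0.767 for all 6171 overlapping promoter regions. Repeated promoter regions of any width were also low, with medians of 48.1% and 0.174 over 482 regions. Genes named Gm accounted for 58 of the 75. The summits of the broad regions fell in exons in 7.61% (replicate 1) and 6.06% (replicate 2), in introns in 57.1% and 58.2%, and between genes in 35.2% and 35.7%. For all overlapping regions the shares were 11.2% and 11.3%, 32.7% and 32.6%, and 56.1% and 56.1%.

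Broad promoter regions were rare among the genes of the lists examined, and they were also rare among all protein-coding genes. The 9 lists held 314 genes (immediate early genes, gonadotrope genes, clock genes, chromatin regulators, splicing factors and others). Of these, 1 (0.318%) had a broad region at its start, the non-coding RNA Snhg14, where the region was repeated sequence over snoRNA genes. None of the 296 protein-coding genes in the lists had one, against 0.313% (65 genes) of all 20780 protein-coding genes. Lists of this size cannot tell so small a share from 0. Some overlapping promoter region of any width was found for 175 of the 314 (55.7%), against 30.9% of all protein-coding genes. Among the immediate early genes, 30 of 45 had one and 0 had a broad one. Jun, a subunit of the AP-1 factor, had 1185 and 1982 bp and Klf10 1042 and 1996 bp, so both stayed below the limit in either replicate. With the limit set at 1500 bp, Nr1d2 (1742 and 2034 bp), a nuclear receptor of the clock, and Hnrnpul1 (1592 and 1673 bp), an RNA-binding protein, also passed. A broad region lay inside the gene body of 1.27% of the listed genes, 1 non-coding RNA among them, and of 0.982% of all protein-coding genes. In Arid1b, which encodes a subunit of a chromatin remodeller, an intronic local array was 2492 and 2415 bp wide with 24 and 25 tags. In Smad4, a signal transducer of the TGF-beta family, another was 3885 and 3866 bp wide with 30 and 46 tags.

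The cell type of the labels was set against marker promoters, which the peak lists check only weakly. Of 8 gonadotrope markers, 3 had an overlapping promoter region, Cga (1187 and 1126 bp), Gnrhr (1168 and 1000 bp) and Lhb (215 and 707 bp), while Fshb, Nr5a1, Pitx1, Lhx3 and Foxl2 had none. Such a region was found at 30.9% of all protein-coding genes. None of 6 markers of other pituitary lineages (Tshb, Gh, Prl, Pomc, Pou1f1 and Tbx19) had one. No marker promoter was broad.

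Width chose the regions, so the spread of widths between replicates is only described. The broad regions had a median width of 3358 bp in the first replicate and 3588.5 bp in the second, against 299 and 336 bp for all peaks. The region was wider in replicate 2 in 349 cases, wider in replicate 1 in 291 and equal in 4. The median of the SD over the mean of both widths was 10.0% (n = 2 replicates per region). Only 517 of the 644 regions were a single peak in each replicate. Summits lay within 200 bp of each other in 212 regions (32.9%), compared with 75.6% of all overlapping regions, and the median distance was 611 bp. All overlapping regions had median widths of only 394 and 487 bp, which leaves little room for distant summits. The contrast follows in part from the width rule and is no measure of agreement between replicates. Over 10 kb of mean width was reached by 36 regions, and 232 were between 2 and 3 kb. Just inside the limit were chr14:43368130-43370325 (2005 and 2195 bp), chr14:6844610-6846847 (2238 and 2006 bp) and chr14:43499472-43501754 (2006 and 2228 bp). Just outside were chr14:7498567-7506517 (7951 and 1999 bp), chr7:112637147-112639202 (2046 and 1998 bp) and chr5:15640797-15644896 (1995 and 4100 bp).

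Most broad regions were of moderate height. Median summit tags of the broad regions were 29 and 31, against 16 and 20 for all overlapping regions. Among the 20 overlapping regions with most tags in each replicate, 7 were broad in replicate 1 and 7 in replicate 2. A single-copy region at chr18:3004119-3006424 (2304 and 2302 bp), far from any protein-coding gene, had 198 and 199.

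Summit tags differed between the replicates in a small share of the pairs of overlapping broad peaks. The summit tags of each pair of overlapping peaks were compared by an exact two-sided binomial test against the ratio of the backgrounds, 1.16, with Benjamini-Hochberg adjustment over all 32835 overlapping pairs. Of the 817 broad pairs, 35 (4.28%) had more tags in replicate 2 at an adjusted p under 0.05, where 1.14% of all pairs did. In the other direction, 11 (1.35%) had more tags in replicate 1, against 0.146% of all pairs. None of these 11 had summits within 200 bp of each other. Pairs with distant summits compare different places in a region. A peak that overlapped several others entered several pairs, so the pairs are not independent. At an unadjusted p under 0.05 there were 93 (11.4%), against 8.15% of all pairs. Broad pairs also held more summit tags, and a pair with more tags passes such a test more easily, and the part of this in the shares was not tested. Scaled instead by the median ratio over 11200 single-copy pairs, 1.53, the split turned, with 10 broad pairs higher in replicate 2 and 34 higher in replicate 1 (76.1% of calls higher in replicate 2 became 22.7%). The direction therefore depended on the scaling. With summits within 200 bp of each other, 8 of 226 broad pairs were called, all higher in replicate 2, against 0.660% of all such pairs. With both changes together, 9 were called, all higher in replicate 1, against 0.194% of all such pairs. That combination was chosen after the values were seen.

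Among the 46 calls, 11 concerned pairs with summits within 200 bp, all higher in replicate 2 relative to the background. Scaled by the single-copy median instead, none of the 11 was still called higher in replicate 2, and 2 of them were called higher in replicate 1. Those 2 were mitochondrial copies. The ratios here are replicate 2 over replicate 1. The copy on chromosome 1 had 1.15 times as many tags in replicate 2 relative to the background (95% interval 1.12 to 1.18, exact binomial test, adjusted p = 1.54e-29) but 0.872 times as many relative to the single-copy median (exact test, adjusted p = 1.6e-28). The copy on chromosome 2 had ratios of 1.09 (1.06 to 1.12, exact test, adjusted p = 2.84e-05) and 0.826 (exact test, adjusted p = 1.4e-29). The copy on chromosome 4 was not called relative to the background (0.995, interval 0.945 to 1.05) and had a ratio of 0.754 relative to the single-copy median (exact test, adjusted p = 1.48e-23). The ribosomal region had ratios of 1.47 (1.31 to 1.65, exact test, adjusted p = 1.45e-08) and 1.11 (exact test, adjusted p = 0.697), and the Hjurp and Trpm8 region 1.64 (1.29 to 2.09, exact test, adjusted p = 0.00372) and 1.24 (exact test, adjusted p = 0.729). The satellite of chromosome 9 did not pass relative to the background (1.05, interval 1.01 to 1.09, exact test, adjusted p = 0.335) and was lower in replicate 2 relative to the single-copy median (0.794, exact test, adjusted p = 3.17e-30). Top2b did not pass relative to the background (1.60, interval 1.16 to 2.22, exact test, adjusted p = 0.130). None of the 11 calls held its direction under both scalings. Neither local arrays (61 pairs) nor regions of many copies (29 pairs) had a called pair in the exact binomial test against the background, and 2 and 0 of them had an unadjusted p under 0.05. These intervals cover counting error only.

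**Figure D5:**
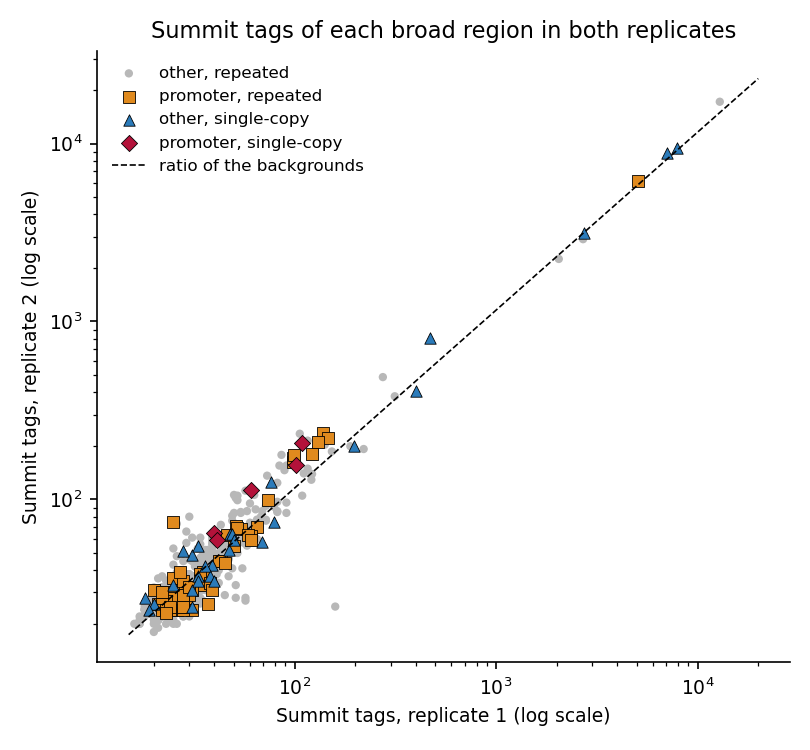
Summit tags of each broad region in replicate 1 (x axis, log scale) and replicate 2 (y axis, log scale), with the 4 classes in colours and symbols and a dashed line at the ratio of the backgrounds, 1.16. Regions of over 1000 tags lie near the line, and the single-copy promoters lie above it.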

How the data were processed

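The data are ATAC-seq peak lists of LβT2 cells, 1 for each of 2 replicates. Reads were aligned by the authors to GRCm38 with Bowtie2, duplicates were discarded, and MACS2 called peaks in each replicate (options "-g dm", extension of 200 bp). The option "-g dm" names the genome size of fly rather than mouse, and the background and the peaks called depend on it. Versions are not given in the sources used here, and no input control is named. For each peak the authors deposited a score (10 times the −log10 q as a whole number), the fold over background, which is a ratio, and −log10 values of p and q (p-value and q-value).

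Broad regions were found from the deposited starts and ends. Summit tags and background were solved from fold and p. Copies of every 50-bp window were counted on both strands of GRCm38, with its unplaced and unlocalized scaffolds. Start sites came from GENCODE vM21. Regions were compared with blastn 2.17.0 and, in Python 3.11.15, with numpy 2.4.6, pandas 2.3.3 and scipy 1.17.1. Figures were drawn with matplotlib 3.10.9. The test and the search for tandem units were tested on simulated data. Reads that fit several places were placed by the aligner, and intervals cover counting error only.

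The members and gene lists were chosen with earlier results of these data known. Named regions are the 6 widest and the 6 with most summit tags in each of the 4 classes, genes of the lists, and 3 regions on each side of the width limit. Kinds, tandem units, blocks, and the regions of Peg3, Asic4 and others outside this rule were chosen after their values were seen. Alternatives concerned the width limit, overlap, q, the promoter and repeat definitions, scaling, and leaving out a replicate. Chromosomes X and Y were not analysed here. One region is not reported here.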

Additional observations from a re-analysis of the deposited data

How the results depend on the processing

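Many alternatives moved a value, and those values are given here. A width limit of 1500 bp gave 1003 regions in place of 644, and either replicate alone gave 883 to 999 broad peaks. The share at a promoter (11.6%) fell to 5.12% when the summits of both replicates had to lie there and rose to 17.5% within 2 kb, 24.5% with all GENCODE genes and 17.2% with any start inside the peaks. Single replicates gave 6.91 to 10.01%. The repeated share (94.9%) was 97.05% when 10% of windows sufficed and 92.1 to 95.02% in single replicates. Median width (3557.25 bp, mean of both widths) was 3358 to 3588.5 bp in single replicates. The 46 called pairs became 8 when only pairs with summits within 200 bp were tested and adjusted, 44 with scaling by single-copy pairs, 34 of them higher in replicate 1, and 9 with both changes, the last chosen after seeing the data. CpG o/e of broad promoters (0.0956) was 0.131 over 200 bp at the summits, 0.106 at a limit of 1500 bp and 0.0924 at 2500 bp, and GC content (44.0%) was 47.25%, 44.2% and 43.8%. Listed genes with a broad promoter rose from 1 to 3 at 1500 bp. No paired analysis was possible because there is only 1 group. The weakest peaks of any width rest on 10 or 11 summit tags, and the widths of such peaks carry that counting error. The strongest summit of each broad region held at least 16 tags in replicate 1 and 18 in replicate 2.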
